A study of Homo sapiens with 9 samples.

Results

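The receptors of the common gamma chain cytokines were followed in the ALL-SIL line, derived from T-cell acute lymphoblastic leukaemia, after siRNA knockdown of TLX1, the homeobox transcription factor that drives this leukaemia subtype. The family was taken as 8 genes out of 58096 gene IDs in the deposited count tables: IL7R, IL9R, IL4R, IL21R, IL2RA, IL2RB, IL2RG and IL15RA. All 8 passed the filter on low counts. Total RNA was sequenced from 3 libraries with siRNA s46 against TLX1, 3 with siRNA s47 against TLX1 and 3 with a scrambled, non-targeting siRNA, each taken 24 h after electroporation. The labels give a dose, 400 nM, for the scrambled siRNA, and state no other treatment for any group. All cells are of a single line grown in serum-supplemented RPMI, and the labels leave unsaid if replicates are separate cultures; p-values cover only the spread among these libraries, which may be technical. Both siRNAs were compared with the same 3 scrambled libraries, so their comparisons with scrambled are not independent.

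IL7R and IL9R were selected on their change in these same counts (log2 fold change and adjusted p against scrambled siRNA), so their levels against scrambled siRNA are given as a description without a test. The other 6 receptor genes are in the family by function, and they were tested.

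Common gamma chain receptors are built from a shared subunit, encoded by IL2RG, and a partner chain. IL7R pairs with it for interleukin-7, IL9R for interleukin-9, IL4R for interleukin-4 and IL21R for interleukin-21. IL2RB pairs with it for interleukin-2 and interleukin-15, where IL2RA or IL15RA completes the high-affinity complex. IL7R, IL9R, IL4R, IL21R and IL2RB signal through JAK1 and the shared chain through JAK3, with STAT5 as the main transcription factor for several of these cytokines. Interleukin-7 signalling is needed for the survival of early thymocytes, and IL7R is a site of activating mutations in T-cell acute lymphoblastic leukaemia.

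The windows upstream of IL7R and IL9R are shown because these are the receptor genes with the clearest difference in level, one in each direction. Both run from 250 bases before to 50 bases after the RefSeq start (GRCh38.p14, read 5′ to 3′ on the plus strand of each gene). Capitals mark matches, on either strand, to the RUNX core TGTGGT and to the ETS core GGAAGT. Matches to the ETS core lie on the other strand here and read ACTTCC.
IL7R, chr5:35856641-35856940: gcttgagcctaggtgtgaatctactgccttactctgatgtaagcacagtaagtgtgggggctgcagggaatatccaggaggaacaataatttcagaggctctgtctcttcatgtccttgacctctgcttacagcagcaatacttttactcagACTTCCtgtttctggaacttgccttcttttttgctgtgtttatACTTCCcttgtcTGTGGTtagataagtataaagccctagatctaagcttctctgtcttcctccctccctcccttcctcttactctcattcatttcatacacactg
IL9R, chrX:155997446-155997745: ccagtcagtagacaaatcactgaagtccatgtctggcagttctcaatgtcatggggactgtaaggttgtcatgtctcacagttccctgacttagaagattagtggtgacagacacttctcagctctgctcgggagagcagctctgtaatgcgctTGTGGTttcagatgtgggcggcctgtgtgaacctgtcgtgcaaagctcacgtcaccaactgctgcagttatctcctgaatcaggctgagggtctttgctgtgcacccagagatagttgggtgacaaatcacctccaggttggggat

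The IL7R window held the ETS core at 2 places and the RUNX core once, and the IL9R window held the RUNX core once. Neither held the STAT palindrome TTCNNNGAA, the forkhead word GTAAACA or the homeodomain word TAATTA. Of 35116 RefSeq windows of the same length, 22.8% held the ETS core, 13.1% the RUNX core, 7.66% the STAT palindrome, 3.42% the forkhead word and 4.84% the homeodomain word. Windows were given for 7 of the 8 genes, all except IL2RB. The ETS core was also in windows of IL4R, IL2RA and IL15RA, the RUNX core in that of IL21R, the STAT palindrome in 1 of IL15RA and the forkhead word in that of IL2RG. A match of letters is a description and shows no binding. The RefSeq starts of IL7R and IL9R each lie inside the gene as GENCODE 29 draws it. The genes span chromosome 5, 35852695 to 35879603, and chromosome X, 155997581 to 156010817, both on the plus strand.

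TLX1 itself was at 63.7, 87.3 and 78.7 CPM (reads scaled to the TMM-adjusted library size) with s46 and 63.5, 73.7 and 75.0 CPM with s47, against 198.1, 188.2 and 171.3 CPM with scrambled siRNA, in the order of replicates 1, 2 and 3. With the 2 siRNAs averaged, its log2 fold change was -1.34 ± 0.11 (SE, edgeR adjusted p 0.000394). Libraries held 21134650 to 33393740 sense gene reads. Scrambled replicate 1 stood apart: 14.4% of its reads were multimapping, against 6.36% to 7.34% in the other 8 libraries, and its log2 CPM correlated at 0.967 and 0.975 across genes with the other scrambled libraries, which correlated at 0.989 with each other. Results that rest on it are therefore given with and without it. Of 8 T-lineage markers all passed the filter, at a summed 1335.6 to 1596.2 CPM per library, while the myeloid, NK and erythroid marker lists were each at most 0.302 CPM in sum. Of 5 B-lineage markers 3 passed, at a summed 10.4 to 14.8 CPM.

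Between both TLX1 siRNAs and scrambled siRNA, 91 of 16072 tested genes (0.566%) passed the threshold, an edgeR adjusted p under 0.05; 66 (0.411%) were higher and 25 (0.156%) lower. With s46 alone 28 genes (0.174%) passed and with s47 alone 53 (0.33%). For both siRNAs together the count was 1650 without scrambled replicate 2, 22 without scrambled replicate 3, 109 without scrambled replicate 1, and 41 to 60 without any single TLX1 siRNA library. As single libraries were left out, it ran from 4 to 225 with s46 and from 4 to 275 with s47. With the replicate number as a block the counts were 222 for both siRNAs together, 74 with s46 and 125 with s47. The split of the calls was 49 higher and 30 lower with library totals in place of TMM scaling. Levels alone separated more genes: all 6 TLX1 siRNA libraries lay above all 3 scrambled ones for 4.47% of tested genes and below them for 3.65%.

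IL7R, the receptor chain for interleukin-7 and thymic stromal lymphopoietin, was higher with both TLX1 siRNAs. It was at 23.6, 21.3 and 26.2 CPM with s46 and 20.8, 24.0 and 30.3 CPM with s47, against 9.14, 8.80 and 7.23 CPM with scrambled siRNA. All 6 TLX1 siRNA libraries lay above the 3 scrambled ones, as 4.47% of tested genes did. These levels rest on 556 to 912 reads per library with the TLX1 siRNAs and 197 to 261 with scrambled siRNA. The log2 fold change was 1.54 ± 0.16 (SE) with both siRNAs averaged, a 2.90-fold difference, with 1.50 for s46 and 1.58 for s47. Leaving out each of the 9 libraries in turn gave 1.45 to 1.60. At most 5 reads per library lay on the strand opposite any receptor gene except IL2RG, which had 4 to 20.

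IL9R, the receptor chain for interleukin-9, moved the other way. It was at 22.8, 28.2 and 23.1 CPM with s46 and 23.3, 27.6 and 22.1 CPM with s47, against 56.7, 43.0 and 41.5 CPM with scrambled siRNA. No TLX1 siRNA library reached the lowest scrambled one, as for 3.65% of tested genes, and scrambled replicate 1 was the highest of the 9. The log2 fold change was -0.94 ± 0.13 (SE) with both siRNAs averaged, a 1.92-fold difference, with -0.93 for s46 and -0.95 for s47. Without scrambled replicate 1 it was -0.78 ± 0.12 (SE), and over all single libraries left out it ran from -1.02 to -0.78. IL9R (chromosome X, 155997581 to 156010817, plus strand) has near-identical copies. Reads that map to several places may not be counted to a gene, so the level of IL9R is uncertain. Its second annotated copy held 0 reads. The pseudogene IL9RP3 held 27 to 50 reads in the TLX1 siRNA libraries and 53 to 99 in the scrambled ones.

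**Figure D1:**
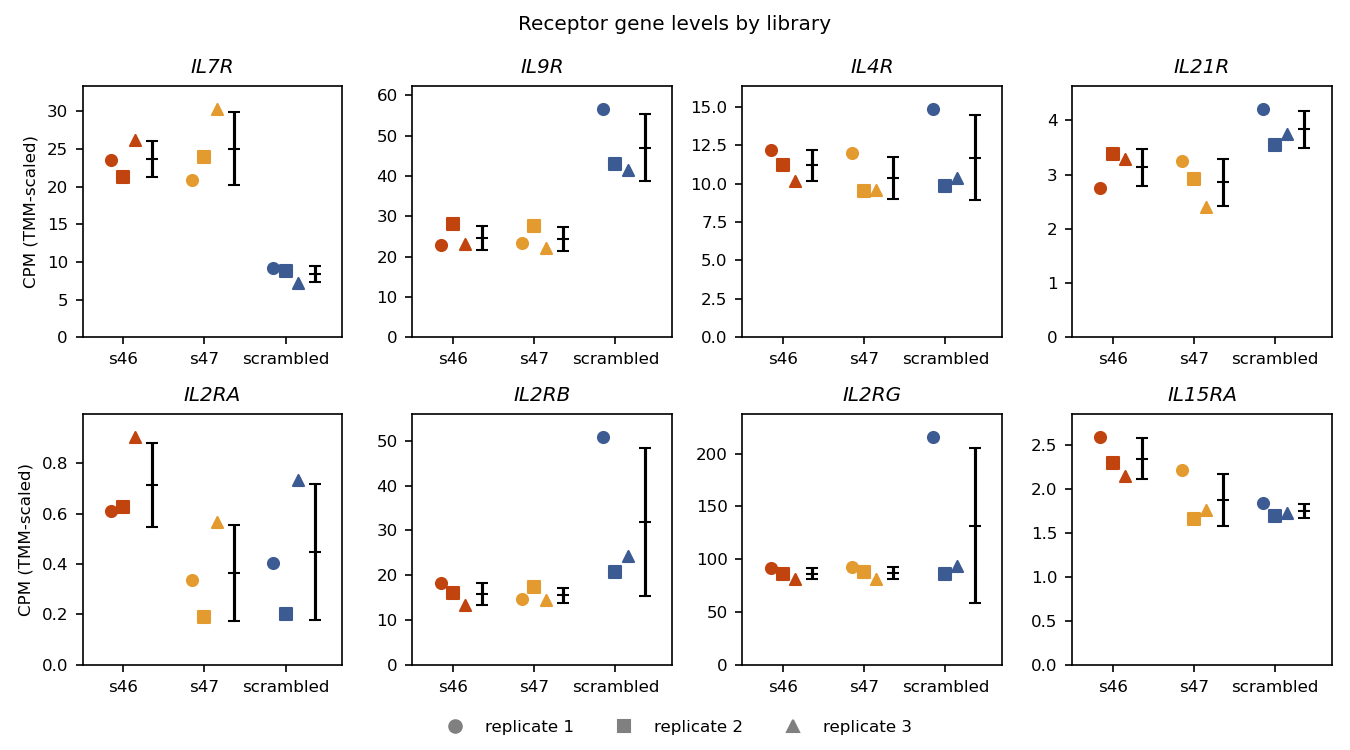
Level of each receptor gene in every library, in TMM-scaled CPM on linear axes from 0, with a panel for each gene; point shapes mark replicate numbers, and the bar beside each group is its mean ± SD (n = 3). IL7R is higher and IL9R lower in all 6 TLX1 siRNA libraries than in the 3 scrambled ones, and IL9R, IL4R, IL21R, IL2RB and IL2RG have their highest value in scrambled replicate 1.

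Of the other 6 receptor genes, edgeR called 0 for both siRNAs together, and IL2RB and IL2RG were the 2 below an unadjusted p of 0.05, as 17.8% of all tested genes were. DESeq2 called IL2RB, against 3.53% of all genes with a DESeq2 adjusted p, and limma-voom called none. With edgeR 0.566% of all genes tested were called, so 0 of 6 does not set these genes apart from the background.

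IL2RG, the shared chain, was the most abundant member. It was at 92.1, 86.5 and 80.9 CPM with s46 and 92.5, 87.9 and 81.5 CPM with s47, against 216.1, 85.9 and 93.3 CPM with scrambled siRNA. Scrambled replicates 2 and 3 lay at or close to the range of the TLX1 siRNA libraries, and replicate 1 lay far above every other library. The log2 fold change was -0.60 ± 0.24 (SE, edgeR adjusted p 0.250), and without scrambled replicate 1 it was -0.04 ± 0.09 (SE, edgeR adjusted p 0.942). Without scrambled replicate 2 it was -0.82 and passed (edgeR adjusted p 0.0470), as it did with no filter on low counts (-0.57, edgeR adjusted p 0.00493). Without scrambled replicate 2, 10.1% of all genes tested passed, and with no filter 876 genes did, against 91 (0.566%) otherwise. The part of the high multimapping share of scrambled replicate 1 in the IL2RG difference was not tested.

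IL2RB, the signalling chain shared by interleukin-2 and interleukin-15, was lower in every TLX1 siRNA library than in every scrambled one, though the call depended on the settings. It was at 18.2, 16.0 and 13.4 CPM with s46 and 14.8, 17.4 and 14.4 CPM with s47, against 51.0, 20.8 and 24.2 CPM with scrambled siRNA. The groups did not overlap, as for 3.65% of tested genes in this direction, but scrambled replicate 1 was more than the other scrambled libraries put together. The log2 fold change was -1.02 ± 0.23 (SE, edgeR adjusted p 0.0797), with -1.01 for s46 (edgeR adjusted p 0.267) and -1.04 for s47 (edgeR adjusted p 0.231). Without scrambled replicate 1 it was -0.52 ± 0.14 (SE, edgeR adjusted p 0.155). It passed with DESeq2 (-1.01, adjusted p 0.00234), with no filter on low counts (-0.99, edgeR adjusted p 3.18e-08) and without scrambled replicate 2 (-1.25, edgeR adjusted p 0.0165). These settings also called more of all genes: 3.53% with DESeq2, 876 genes with no filter and 10.1% without scrambled replicate 2, against 91 genes (0.566%). In bulk RNA, fewer cells that express a gene and less of its RNA per cell cannot be told apart.

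IL4R, the interleukin-4 chain, was at 12.2, 11.2 and 10.2 CPM with s46 and 12.0, 9.54 and 9.58 CPM with s47, against 14.9, 9.88 and 10.4 CPM with scrambled siRNA. The groups overlapped, and the log2 fold change of -0.12 ± 0.16 (SE, edgeR adjusted p 0.719) was 0.09 ± 0.15 without scrambled replicate 1. IL21R, the interleukin-21 chain, was at 2.75, 3.37 and 3.29 CPM with s46 and 3.26, 2.93 and 2.40 CPM with s47, against 4.21, 3.54 and 3.75 CPM with scrambled siRNA. All 6 TLX1 siRNA libraries lay below the 3 scrambled ones, as 3.65% of tested genes did, and the log2 fold change of -0.35 ± 0.19 (SE) did not pass (edgeR adjusted p 0.331). IL4R and IL21R are neighbours on chromosome 16, 37.384 kb apart.

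IL15RA, the interleukin-15 binding chain, was at 2.59, 2.29 and 2.14 CPM with s46 and 2.21, 1.65 and 1.76 CPM with s47, against 1.84, 1.69 and 1.73 CPM with scrambled siRNA. The s46 libraries all lay above the scrambled ones, whereas s47 overlapped both groups. The share of tested genes that separate in this way with s46 alone was not counted, so the separation is a description. The log2 fold change of IL15RA was 0.26 ± 0.22 (SE, edgeR adjusted p 0.528) with both siRNAs averaged and 0.42 (edgeR adjusted p 0.478) for s46. Its log2 difference of s46 over s47, 0.32 ± 0.24 (SE), did not pass (edgeR adjusted p 0.999979). IL2RA, the high-affinity interleukin-2 chain, was near the limit of detection with 6 to 30 reads per library. It was at 0.610, 0.626 and 0.905 CPM with s46 and 0.337, 0.191 and 0.566 CPM with s47, against 0.403, 0.202 and 0.734 CPM with scrambled siRNA. The groups overlapped, and the log2 fold change of 0.20 ± 0.47 (SE, edgeR adjusted p 0.851) ran from -0.16 to 0.78 as single libraries were left out.

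**Figure D2:**
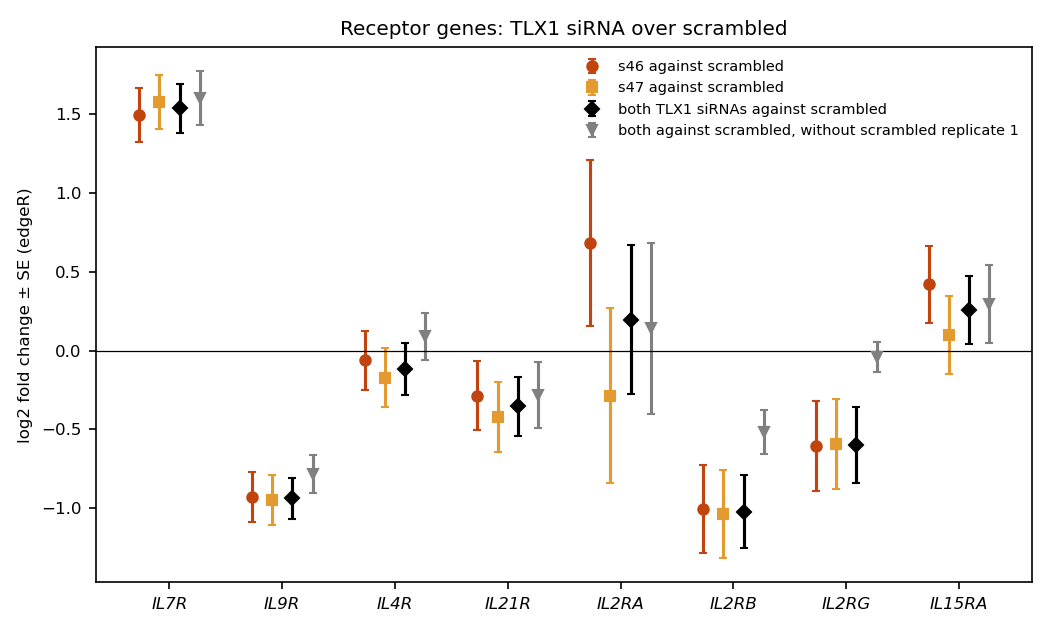
Log2 fold change ± SE (edgeR) of each receptor gene over scrambled siRNA, for s46, for s47, for the mean of both, and for the mean of both without scrambled replicate 1. IL7R lies at 1.54 and IL9R at -0.94 with both siRNAs together, and IL2RB and IL2RG lie nearer 0 without scrambled replicate 1, at -0.52 and -0.04.

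The direct comparison of s46 with s47 asks whether the siRNAs differ in their effect on the receptors, and for it all 8 genes were tested. No receptor gene passed; edgeR called 0 of 16072 genes (0%), 113 lay below an unadjusted p of 0.05, and neither DESeq2 nor limma-voom called any (0 each). The log2 difference of s46 over s47 was -0.08 ± 0.17 (SE) for IL7R and 0.02 ± 0.16 for IL9R. It was 0.03 ± 0.28 for IL2RB, -0.01 ± 0.28 for IL2RG, 0.11 ± 0.19 for IL4R, 0.13 ± 0.22 for IL21R and 0.32 ± 0.24 for IL15RA. IL2RA had the widest difference, 0.97 ± 0.53 (SE, edgeR adjusted p 0.999979), at the low counts given above. These standard errors leave room for differences that the libraries could not resolve.

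Levels of different genes were compared as CPM per kilobase of exon. With s46, IL2RG was at 31.3 ± 2.02 CPM per kilobase (SD, n = 3), IL9R at 9.86 ± 1.20, IL7R at 3.91 ± 0.405, IL2RB at 3.38 ± 0.512, IL4R at 1.90 ± 0.170, IL15RA at 0.645 ± 0.0632, IL21R at 0.573 ± 0.0621 and IL2RA at 0.180 ± 0.0419. The order with s47 was the same down to IL4R, with IL7R at 4.13 ± 0.800 CPM per kilobase and IL2RB at 3.30 ± 0.346. With scrambled siRNA the order was IL2RG at 47.7 ± 26.5 CPM per kilobase, IL9R at 18.8 ± 3.35, IL2RB at 6.80 ± 3.52, IL4R at 1.99 ± 0.468, IL7R at 1.38 ± 0.168, IL21R at 0.701 ± 0.0630, IL15RA at 0.481 ± 0.0216 and IL2RA at 0.113 ± 0.0678. IL7R thus held the third place with each TLX1 siRNA and the fifth with scrambled siRNA. The ranges of IL7R and IL2RB overlapped with each TLX1 siRNA, as did those of IL15RA and IL21R, while no neighbours in the scrambled order overlapped. With the longest transcript as the length, IL15RA came above IL21R in scrambled libraries too (0.946 against 0.790 CPM per kilobase). Among 11164 tested protein-coding genes in scrambled libraries, 93.9% lay below IL2RG, 77.8% below IL9R, 22.5% below IL4R, 18.5% below IL7R and 3.04% below IL2RA.

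**Figure D3:**
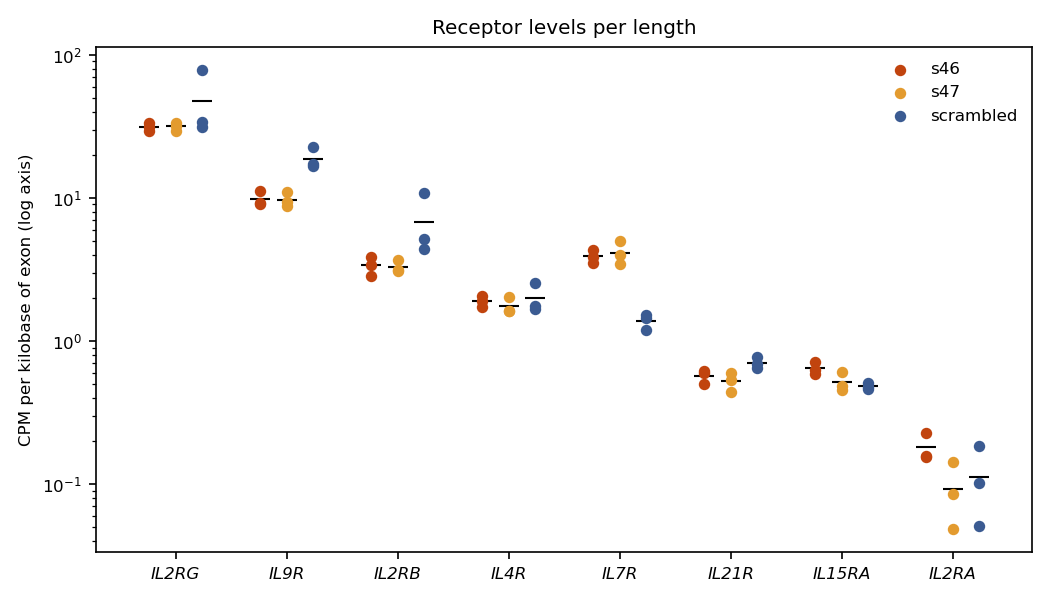
Level of each receptor gene per length, in TMM-scaled CPM per kilobase of exon on a log axis, with a point for each library and a line at each group mean, ordered by the mean in scrambled libraries. IL2RG is highest and IL2RA lowest in every group, and IL7R changes places with IL4R and IL2RB between the TLX1 siRNA and scrambled groups.

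The level of IL7R over that of IL9R, per length, was 0.427, 0.312 and 0.468 with s46 and 0.369, 0.359 and 0.568 with s47, against 0.0666, 0.0846 and 0.0720 with scrambled siRNA. Of the 7 chains other than IL2RG together, IL7R made up 19.2% ± 2.87 with s46 and 20.7% ± 4.25 with s47, against 4.69% ± 0.871 with scrambled siRNA (SD, n = 3 each). IL9R made up 48.1% ± 3.86 with s46 and 48.4% ± 3.33 with s47, against 62.8% ± 4.15 with scrambled siRNA. The sum of the 7 was 20.4 ± 0.964 CPM per kilobase with s46 and 20.1 ± 1.15 with s47, against 30.3 ± 7.47 with scrambled siRNA, where replicate 1 was the highest library at 38.9. IL2RB over IL2RG was 0.0936 to 0.116 in the TLX1 siRNA libraries and 0.138 to 0.152 in the scrambled ones, of which replicate 1 had 0.138. That ratio kept scrambled replicate 1 beside the other scrambled libraries, although both of its terms were high there. These ratios rest on genes chosen for their change or looked at after their values were seen, and they carry no test.

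Genes around the receptors in the pathway were counted in lists by role. Over 119 genes in 8 lists, 89 were tested and edgeR called 0 higher and 0 lower, against 0.411% and 0.156% of all genes. An unadjusted p under 0.05 was found for 25, 10 higher and 15 lower, against 17.8% of all genes tested. DESeq2 called 1 higher and 3 lower (PIK3CB, GATA3 and STAT6), against 3.53% of all genes, and limma-voom called 0. With the replicate number as a block edgeR called 3, 1 higher and 2 lower (IL6R and PIM2), against 1.38% of all genes. With scrambled replicate 1 left out edgeR called 3, against 0.666% of all genes, and with scrambled replicate 2 left out it called 15, against 10.1%. The median log2 fold change over the 89 was -0.07, against -0.03 over all genes tested and -0.24 over the 8 receptor genes. Without scrambled replicate 1 the median over the 89 was -0.03. The -0.24 lies between IL21R at -0.35 and IL4R at -0.12. Without scrambled replicate 1 the middle values of the receptor genes were -0.04 for IL2RG and 0.09 for IL4R.

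Of 8 ligand genes 2 passed the filter, IL15 at 117 to 190 reads per library and TSLP at 69 to 109. IL2, IL7, IL9 and IL21 had 0 reads in every library, and IL4 and IL13 at most 4 and 3. IL15 had a log2 fold change of -0.25 ± 0.22 (SE, edgeR adjusted p 0.558) and TSLP, which signals through IL7R with CRLF2, of -0.01 ± 0.20. CRLF2 was at 1.50 ± 0.463 CPM with s46 and 1.70 ± 0.306 with s47, against 1.18 ± 0.420 with scrambled siRNA (SD, n = 3 each; edgeR adjusted p 0.449).

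All 11 JAK and STAT genes were tested; edgeR called 0 and DESeq2 called STAT6. Their median log2 fold change was -0.10, and 5 had an unadjusted p under 0.05, against 17.8% of all genes. JAK1, the kinase bound by the signalling partners of the shared chain, was at 190.3, 160.7 and 174.3 CPM with s46 and 189.1, 163.5 and 172.2 CPM with s47, against 141.4, 140.2 and 159.2 CPM with scrambled siRNA. All 6 TLX1 siRNA libraries lay above the 3 scrambled ones, by a small margin, as 4.47% of tested genes did. Its log2 fold change was 0.25 ± 0.10 (SE, edgeR adjusted p 0.244). JAK3, the kinase bound to the shared chain, was at 90.7, 95.7 and 70.2 CPM with s46 and 81.9, 102.5 and 77.9 CPM with s47, against 217.3, 103.5 and 98.4 CPM with scrambled siRNA. As with IL2RG, the highest value was scrambled replicate 1, and the log2 fold change of -0.69 ± 0.23 (SE, edgeR adjusted p 0.206) was -0.22 without it. STAT6, which acts below IL4R, had -0.41 ± 0.11 (SE, edgeR adjusted p 0.140), STAT5A -0.16 (edgeR adjusted p 0.466) and STAT5B 0.04 (edgeR adjusted p 0.835). JAK2 had a log2 fold change of 0.41, STAT2 of -0.18, STAT3 of 0.05 and STAT4 of -0.10, none called by edgeR.

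Feedback regulators and targets of these receptors had a median log2 fold change of 0.05 over 14 tested genes of 16, with 0 called by edgeR or DESeq2. PIM2, a STAT5-induced survival kinase, had -0.60 ± 0.18 (SE, edgeR adjusted p 0.167) and -0.30 without scrambled replicate 1. OSM, a STAT5-induced cytokine, had 0.50 ± 0.26 (edgeR adjusted p 0.328). In the PI3K and FOXO arm 20 of 20 genes were tested, with a median of -0.07; edgeR called 0 and DESeq2 2, PIK3CB among them. PIK3CB, a catalytic subunit, had -0.80 ± 0.25 (edgeR adjusted p 0.190) and -0.32 without scrambled replicate 1. Among 15 adaptors and phosphatases, all tested, the median was -0.15 with 0 called by edgeR or DESeq2. Without scrambled replicate 1 the median was -0.02, and edgeR called PTPRC (-0.49, edgeR adjusted p 0.0257). CBL, a ubiquitin ligase, had -0.58 ± 0.19 (edgeR adjusted p 0.193; -0.23 without scrambled replicate 1) and SOS1, a Ras exchange factor, -0.46 ± 0.14 (edgeR adjusted p 0.187; -0.26 without it).

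Factors known to act on IL7R transcription had a median log2 fold change of -0.03 over 14 tested genes of 16. EdgeR called 0 and DESeq2 called GATA3, and 6 had an unadjusted p under 0.05, against 17.8% of all genes. RUNX3, a Runt-family factor, was at 42.2, 46.7 and 35.3 CPM with s46 and 29.9, 47.2 and 29.7 CPM with s47, against 147.5, 53.4 and 59.6 CPM with scrambled siRNA. All 6 TLX1 siRNA libraries lay below the 3 scrambled ones, as 3.65% of tested genes did. Its log2 fold change was -1.18 ± 0.30 (SE, edgeR adjusted p 0.141), or -0.56 without scrambled replicate 1. GATA3, a T-lineage factor, had -0.75 ± 0.24 (edgeR adjusted p 0.193), or -0.23 without that library. Of 31 other type I and II cytokine receptor genes 13 were tested, with a median of -0.23 and 0 called by edgeR or DESeq2. IL6R, the interleukin-6 chain, was at 5.38 to 13.7 CPM with the TLX1 siRNAs and 14.1 to 30.9 CPM with scrambled siRNA (-1.25 ± 0.32 SE, edgeR adjusted p 0.126). IL10RA, the interleukin-10 chain, had -0.46 ± 0.24 (edgeR adjusted p 0.329).

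**Figure D4:**
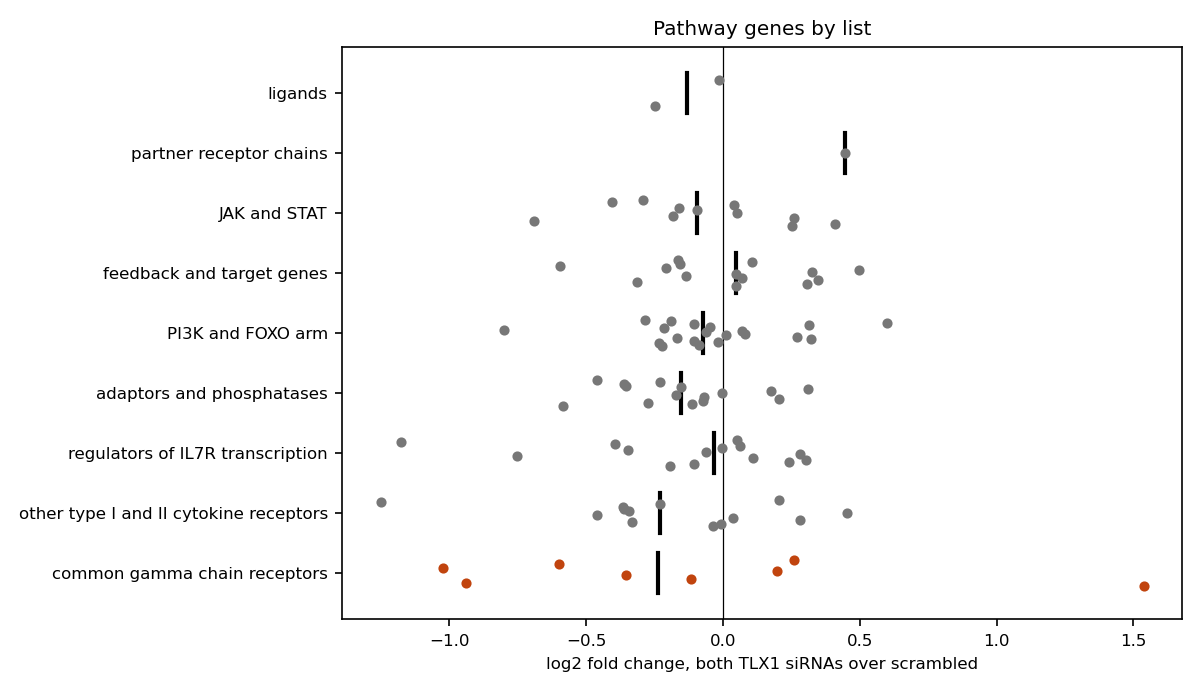
Log2 fold change of each tested gene, mean of both TLX1 siRNAs over scrambled siRNA, for 8 pathway lists (grey) and the 8 receptor genes (red); the black bar is each list's median, and the vertical scatter within a row has no meaning. Medians of the pathway lists lie between -0.23 and 0.45, and IL7R at 1.54 is the highest point of those shown.

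The genes most like IL7R and IL9R across the 9 libraries were ranked by Pearson correlation of log2 CPM over 11514 genes with log2 CPM of at least 1. Nearest to IL7R were MPLKIP (r = 0.979), TC2N (0.977), MZB1 (0.970), XPR1 (0.965) and C12orf65 (0.963). Nearest to IL9R were PLEC (r = 0.986), DGKD (0.981), TMC6 (0.971), FERMT3 (0.970) and ABI3 (0.967). The log2 fold change against scrambled siRNA ran from 0.20 for MPLKIP to 2.67 for TC2N in the first group and from -1.44 for PLEC to -0.40 for DGKD in the second. These correlations follow the difference between groups, share depth and scaling, and are a description. Between IL7R and IL9R the correlation was -0.92 over the 9 libraries and -0.06 once each group's mean was taken out.

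The nearest protein-coding genes on either side were also examined, and none was called. SPEF2 and CAPSL, 38.084 and 24.692 kb from IL7R, were below the filter on low counts. VAMP7, next to IL9R, had a log2 fold change of 0.13 ± 0.12 (SE, edgeR adjusted p 0.582). CXorf65 and MED12 beside IL2RG had -0.41 and -0.34, and C1QTNF6 beside IL2RB had -0.37. NSMCE1 beside IL4R had 0.24, GTF3C1 beside IL21R -0.14, RBM17 beside IL2RA 0.40 and FBH1 beside IL15RA -0.03. Their edgeR adjusted p was 0.185 or higher.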

How the data were processed

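The deposited tables hold the authors' raw counts, 1 table per library, with reads of each strand in separate columns. The genome build was GRCh38, per the submitters' processing notes; no aligner or counting tool is given in the sources used here. Per the labels' protocols, a stranded kit with ribosomal RNA depletion was used. The sense counts were used, and the 4 lines of each table that name no gene were left out. Of 58096 gene IDs, 57492 matched GENCODE 29, which gave symbols, coordinates and exon lengths. Genes were filtered with filterByExpr (minimum count 10), scaled by TMM and tested in 1 fit of all 9 libraries with edgeR 4.0.16 (quasi-likelihood F test, robust; Benjamini-Hochberg over 16072 genes, threshold 0.05) in R 4.3.3. SE values were derived from the F statistics, and the fit was tested on simulated data. Alternatives used DESeq2 1.42.0, limma 3.58.1, other scalings, no filter, unstranded counts, the replicate number as a block and each library left out.

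The named genes are the 8 receptors, TLX1, JAK1, JAK3 and the STAT genes, up to 2 uncalled members per list with the largest change at log2 CPM of at least 1, the 5 genes most like IL7R and IL9R, and adjacent genes. Some genes that this rule takes are not reported here. The members and lists were chosen with earlier results of these data known.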

Additional observations from a re-analysis of the deposited data

How the results depend on the processing

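Log2 fold changes of IL7R (1.45 to 1.60) and IL9R (-1.02 to -0.78) for both siRNAs averaged kept their direction under all 16 alternatives. Both genes were selected on their change in these same counts, so this is a description. Of 512 values of single receptor genes under alternatives, 500 were counted as unchanged. They stayed on their side of the threshold or, for IL7R and IL9R against scrambled siRNA, kept their direction. The other 12 newly passed, all of IL2RB or IL2RG. Direction is the looser measure: without s46 replicate 1, IL9R no longer met the threshold against scrambled siRNA with s46 alone or with s47 alone. Counts of genes past the threshold moved more. With no filter they were 876 for the mean of both siRNAs (325 higher, 551 lower, against 66 and 25), 384 for s46, 432 for s47, 3 for s46 against s47, 4 receptor genes and 9 pathway genes. Every count of receptor genes given here includes IL7R and IL9R, which were selected on their change, so 2 of the calls carry no test. DESeq2 gave 457, 199 and 204 for the same 3 comparisons with scrambled siRNA, and 4 pathway genes; library totals gave 14 for s46. RLE size factors, limma-voom and unstranded counts gave 93, 97 and 80 for the mean of both siRNAs. Leaving out each library gave 22 to 1650 for the mean of both siRNAs, with 1650 split into 813 higher and 837 lower, 4 to 225 for s46, 4 to 275 for s47, 2 to 4 receptor genes and 0 to 15 pathway genes, with the highest of each without scrambled replicate 2; the cause was not tested. With the replicate block the counts were 222, 74 and 125, and 3 pathway genes, and no call of a receptor gene changed. Same-numbered libraries correlated in their deviations from the group means at 0.199 to 0.436, each best with its own number for s46 with s47 and for s46 with scrambled, but s47 and scrambled replicates 2 correlated at -0.03; the labels do not say what the numbers mark. Taking the longest transcript as the length gave scrambled levels of 1.81 CPM per kilobase for IL7R, 23.2 for IL9R, 3.18 for IL4R, 0.790 for IL21R and 0.946 for IL15RA. Depth limits IL2RA, with 6 to 30 reads per library.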
